A study of Mus musculus with 5 samples.

Results

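The simple-epithelial keratins Krt7, Krt8, Krt18, Krt19, Krt20 and Krt23 were followed in epithelial tumour cells of the mouse prostate. They are 6 of the 18193 genes measured and have 8 of the 45037 probe sets of the array, taken as every probe set whose only gene symbol is one of these names. Krt7 was singled out for its lower signal in nTKO cells on these same arrays, so its genotype difference is given as a description, with no test. The other keratins were added as members of its family. Expression was measured on Affymetrix mouse arrays in tumours that had been dissociated and enriched for tumour cells with EpCAM beads. The 5 arrays came from 5 C57BL/6 mice, 2 nTKO and 3 nDKO. In the nTKO mice, the Probasin driver, active in prostate epithelium, was combined with floxed alleles that include Smad4L/L and Pygo2L/L, and the mice were 31.43 and 16 weeks old. The nDKO mice carried the same driver and floxed alleles but not Pygo2L/L, and were 15.86, 10.71 and 10.71 weeks old. Loss of Smad4, through which TGF-beta and BMP receptors signal to the nucleus, is thus shared by both groups, and the comparison asks what differs when the chromatin reader and beta-catenin co-activator Pygo2 is lost as well.

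Keratins build the intermediate filaments of epithelial cells. A filament forms only from pairs of an acidic type I and a basic type II keratin. Krt8 (type II) and Krt18 (type I) are the pair of simple, one-layered epithelia and of the luminal cells of the prostate, whereas Krt5 and Krt14 are the pair of its basal cells. Krt7 is a type II keratin of ducts, glands and the urothelium. Krt19 is a type I keratin that lacks most of the tail domain, Krt20 a type I keratin of the intestine and of the umbrella cells of the urothelium, and Krt23 a less studied type I keratin.

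In the mouse genome build GRCm38.p6, Krt7 (chr15:101412403-101427806), Krt8 (chr15:101996711-102004342) and Krt18 (chr15:102028216-102032026) lie on chromosome 15. Krt8 and Krt18 are transcribed away from each other, with 23873 bases between them. Krt19 (chr11:100140810-100145926), Krt20 (chr11:99428385-99438153) and Krt23 (chr11:99477973-99493120) lie on chromosome 11. RefSeq's promoter table of that build held 5 of the 6 genes. The 250 bases before the annotated start of Krt7, Krt8 and Krt18 are shown because Krt8 and Krt18 had nearly the same profile over the arrays and Krt7 another. They are written 5′ to 3′ on the strand of the gene, with matches on either strand in capitals:
Krt7 (chr15:101412153-101412402, plus strand): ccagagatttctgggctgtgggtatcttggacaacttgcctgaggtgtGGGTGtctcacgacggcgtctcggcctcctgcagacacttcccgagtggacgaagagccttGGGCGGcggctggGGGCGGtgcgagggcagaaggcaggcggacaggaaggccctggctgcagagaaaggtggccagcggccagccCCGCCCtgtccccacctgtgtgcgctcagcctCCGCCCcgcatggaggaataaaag
Krt8 (chr15:102004343-102004592, minus strand): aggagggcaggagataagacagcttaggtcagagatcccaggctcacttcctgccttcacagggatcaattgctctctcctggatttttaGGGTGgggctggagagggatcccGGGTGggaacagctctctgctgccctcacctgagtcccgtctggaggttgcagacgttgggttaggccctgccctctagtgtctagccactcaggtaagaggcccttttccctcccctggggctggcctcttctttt
Krt18 (chr15:102027966-102028215, plus strand): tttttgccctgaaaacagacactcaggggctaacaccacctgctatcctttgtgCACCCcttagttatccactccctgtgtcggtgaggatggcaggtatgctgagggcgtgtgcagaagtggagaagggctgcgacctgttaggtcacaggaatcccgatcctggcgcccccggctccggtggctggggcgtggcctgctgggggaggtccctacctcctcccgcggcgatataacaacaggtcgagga

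The capitals mark the GC box GGGCGG, which Sp1 and related factors can bind, and the element CACCC, which Krüppel-like factors can bind, and no 2 matches overlap. Krt7 had 4 matches of the GC box, and Krt8 and Krt18 had 0. At least 1 match was found in 32.7% of the 32851 promoters of the table and at least 4 in 4.09%. The Krt7 window was 66% G or C, against a median of 52.4% over the table, and among the 2507 promoters within 2 percentage points of Krt7's content 9.77% had at least 4 matches. CACCC was found once in Krt7 and Krt18 and 2 times in Krt8, and in 52% of all promoters. The TCF/LEF cores CTTTGAT and CTTTGTT, through which beta-catenin acts, the androgen receptor half-site AGAACA and the Grainyhead-like site AACCNGGTT had 0 matches in these windows, and were in 3.21%, 5.03%, 16.1% and 0.24% of all promoters. A match is a description of letters and not a binding site.

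The values are log2 signals made by RMA, which are comparable between arrays for 1 probe set but not between different probe sets. Array medians lay between 4.94 and 4.98. Markers of the labelled cells were bright, with the surface protein Epcam, the target of the beads, at 13.24 and 13.41 in nTKO cells and 12.94, 13.48 and 13.35 in nDKO cells, and the luminal transcription factor Foxa1 at 12.02 and 12.14 in nTKO against 11.64, 12.09 and 12.20 in nDKO cells. Pygo2 was at 7.30 and 6.35 in nTKO cells, against 8.65, 8.62 and 8.72 in nDKO cells. Smad4 kept a signal on all arrays, at 9.76 and 10.37 in nTKO cells and 9.63, 9.88 and 9.88 in nDKO cells, from probes whose place in the gene is not given here. The arrays nTKO 1 and nDKO 1, the oldest mouse of each genotype, stood apart from the other 3. Their Krt10, a keratin of stratified, keratinising epithelium, was at 13.04 and 13.03, against 6.90 in nTKO 2 and 6.93 and 6.71 in nDKO 2 and nDKO 3. In cells sorted in bulk, fewer cells of a type and less RNA per cell cannot be told apart.

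Krt7, the member chosen for its lower signal in nTKO cells, was at 11.51 and 11.19 in nTKO cells, against 12.24, 12.39 and 12.09 in nDKO cells. Both nTKO mice lay below every nDKO mouse, and the gap between the nearest mice of the 2 groups, nTKO 1 and nDKO 3, was larger than the spread within either group. The log2 fold change was -0.89 (SE 0.15), which leaves 54% of the nDKO signal, with means of 11.35 ± 0.23 (SD, n = 2) in nTKO and 12.24 ± 0.15 (SD, n = 3) in nDKO cells. With 1 mouse left out it lay between -1.05 and -0.73, and with log2 age as a covariate it was -1.09. Subtracting nDKO 1 from nTKO 2, mice of nearly the same age, gave -1.05, and leaving out both nTKO 1 and nDKO 1 also gave -1.05. Though alike in age, nTKO 2 and nDKO 1 were unlike in Krt10, at 6.90 and 13.03. Within each genotype the oldest mouse was also the one with high Krt10. A fit with age therefore cannot separate age from high Krt10, for Krt7 or for the other members below.

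**Figure D1:**
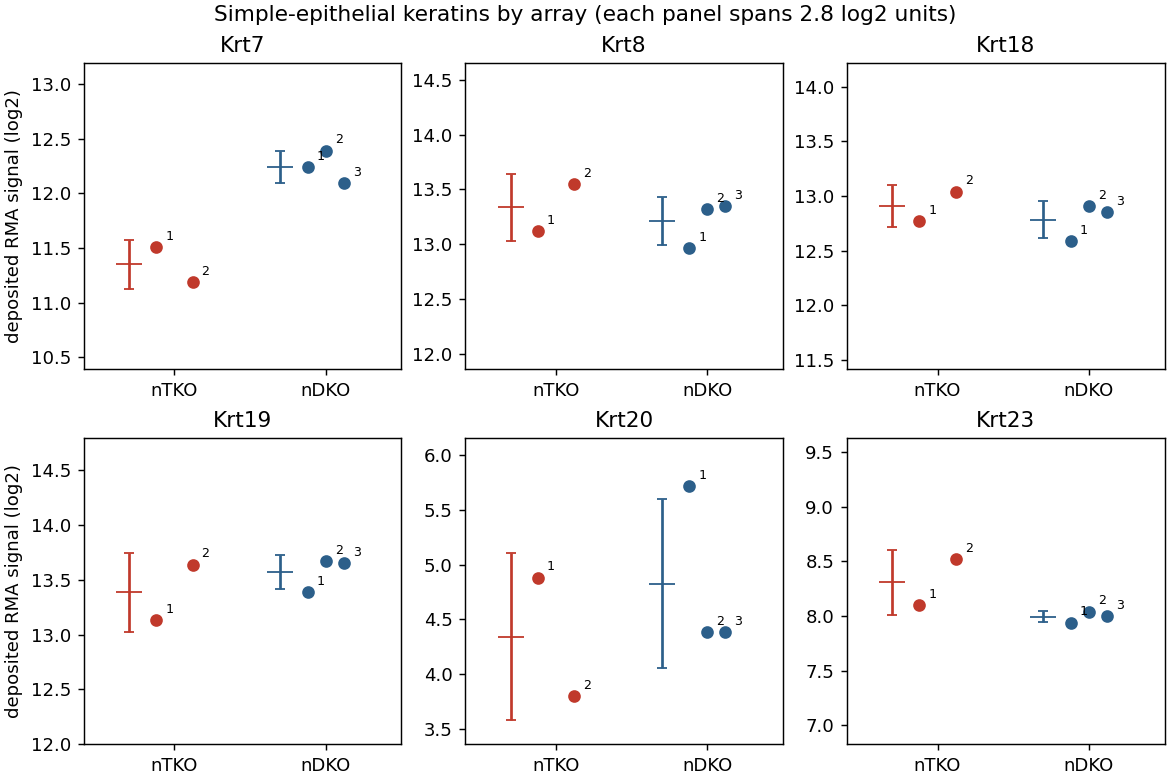
Deposited RMA signal (log2) of the brightest probe set of each simple-epithelial keratin, by genotype. Points are single mice with their replicate numbers, and horizontal marks with bars are means ± SD (n = 2 nTKO, n = 3 nDKO). Krt7 is separated between the genotypes (11.19 to 11.51 in nTKO, 12.09 to 12.39 in nDKO cells), while Krt8, Krt18, Krt19 and Krt20 overlap.

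Krt7 was also among the larger differences of bright genes. Of 18193 genes, 46 had a more negative difference. Of the 582 genes with a mean level of at least 11, 2 did, and these were the secreted protease inhibitor Spink1 (-1.34) and the kinase Sgk1 (-1.28), which were named after their values were seen. These ranks come from the same contrast for which Krt7 was chosen and are a description only.

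Krt8, the type II partner of simple epithelia, had another order of arrays than Krt7. Its brightest probe set was at 13.12 and 13.55 in nTKO cells, against 12.96, 13.32 and 13.35 in nDKO cells. The groups overlapped, with nDKO 1 lowest and nTKO 2 highest of all 5, and the genotype difference was 0.12 (SE 0.20) on the log2 scale. Krt8 is the only member with more than 1 probe set, and the other 2 had the same highest and lowest array and genotype differences of 0.11 (SE 0.22) and 0.12 (SE 0.19). Their names mark them as sets with some probes that can match other transcripts. The Krt8 difference was 0 when nDKO 1 was left out, -0.09 when nTKO 2 was, and 0.57 once log2 age entered the fit.

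Krt18, the type I partner of Krt8, measured 12.77 and 13.04 in nTKO cells and 12.59, 12.91 and 12.85 in nDKO cells. The groups overlapped, and again nDKO 1 was lowest and nTKO 2 highest. Its log2 fold change of 0.12 (SE 0.14) was -0.013 without nTKO 2 and 0.025 without nDKO 1.

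Krt19 was at 13.13 and 13.64 in nTKO cells and 13.39, 13.67 and 13.65 in nDKO cells. The value of nTKO 1 lay below all nDKO mice and that of nTKO 2 within their range. The log2 fold change of -0.18 (SE 0.19) turned to 0.07 when nTKO 1 was left out and to 0.26 once log2 age entered the fit. The highest value on any array was 14.08, so Krt8 and Krt19 lie close to the top of the scale. How far that limits their differences was not tested.

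Krt20 was dim, at 4.88 and 3.80 in nTKO cells and 5.72, 4.38 and 4.38 in nDKO cells. It exceeded the array median of 4.94 in nDKO 1 alone. Each genotype had its highest value in replicate 1, and the groups overlapped widely. Krt20 differed by -0.49 (SE 0.60) on the log2 scale, but by -0.04 without nDKO 1, 0.053 without nTKO 2, -1.03 without nTKO 1 and -1.92 between the mice of nearly the same age, nTKO 2 and nDKO 1. With log2 age as a covariate Krt20 differed by -1.80. The genotype difference of Krt20 thus depended on which mice entered and on the fit.

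Krt23 measured 8.10 and 8.52 in nTKO cells, against 7.94, 8.04 and 8.0 in nDKO cells. Both nTKO mice lay above every nDKO mouse, nTKO 1 by a small step. Krt23 differed by 0.32 (SE 0.14) on the log2 scale, by 0.11 when nTKO 2 was left out, 0.53 when nTKO 1 was, and 0.62 once log2 age entered the fit.

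The groups did not overlap for 2 of the 6 members, Krt7 (nTKO lower) and Krt23 (nTKO higher). Over all genes this held for 12.8%, with nTKO lower for 4.71% and higher for 8.13%. With limma, 0 of 18193 genes (0%) had a Benjamini-Hochberg adjusted p under 0.05, where 689 had an unadjusted p under 0.05 (3.79%). The members other than Krt7 had limma adjusted p-values of 0.853 to 0.905 over all genes. The fit over all 45037 probe sets also called 0. An exact permutation test of 2 against 3 mice could not have gone below 0.1.

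**Figure D2:**
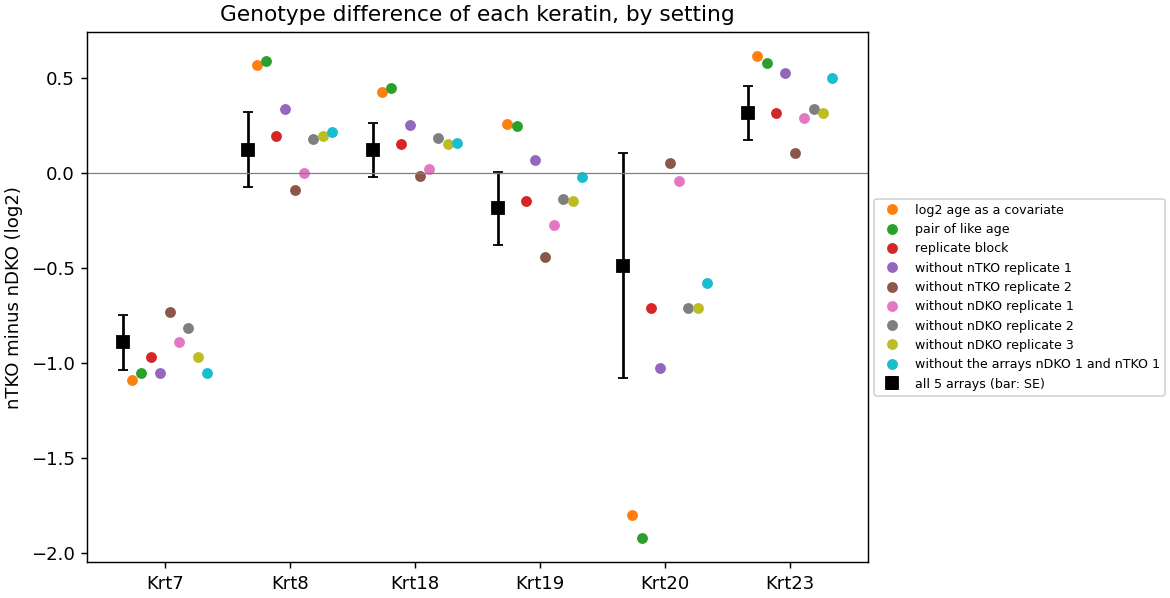
Genotype difference of each simple-epithelial keratin, nTKO minus nDKO (log2), in all 5 arrays (black squares, bars are SE). Coloured points are the settings with a covariate or block, or with fewer mice. The other settings are not plotted. Krt7 stays between -1.09 and -0.73 in the settings plotted and Krt23 between 0.11 and 0.62, while the points of Krt8, Krt18, Krt19 and Krt20 reach or cross 0. Leaving out mice could not reverse Krt7 or Krt23, whose groups do not overlap.

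Differences between 2 keratins on the same array show which of them moved together. A difference of this kind compares arrays and says nothing of which keratin is more abundant. Krt8 minus Krt18 was 0.35 and 0.51 in nTKO cells and 0.37, 0.41 and 0.50 in nDKO cells. It spanned only 0.16 over the 5 arrays, whereas Krt8 itself spanned 0.59 and Krt18 0.45. The pair was thus nearly constant in ratio, and its genotype difference was 0.0033. How many other pairs of bright genes span as little was not counted.

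Krt7 minus Krt8 was -1.61 and -2.36 in nTKO cells, against -0.72, -0.93 and -1.26 in nDKO cells. The groups did not overlap and nTKO 2 was lowest. The difference between the genotypes was -1.02, and it was -0.64 without nTKO 2 and -1.39 without nTKO 1. Krt7 minus Krt18 was -1.26 and -1.85 in nTKO cells and -0.35, -0.52 and -0.76 in nDKO cells, a difference of -1.01. It was -0.72 without nTKO 2. The type II keratin Krt7 was therefore lower relative to both members of the Krt8 and Krt18 pair in each nTKO mouse than in all nDKO mice.

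Krt7 minus Krt19 was -1.62 and -2.45 in nTKO cells, against -1.15, -1.28 and -1.56 in nDKO cells. The value of nTKO 1 lay just below that of nDKO 3, and the difference of -0.71 was -0.29 without nTKO 2. Krt8 minus Krt19 was -0.01 and -0.09 in nTKO cells and -0.43, -0.35 and -0.30 in nDKO cells, a difference of 0.31. Here both nTKO mice lay above every nDKO mouse. Krt18 minus Krt19 gave nearly the same, 0.31, with -0.36 and -0.60 in nTKO cells against -0.80, -0.76 and -0.80 in nDKO cells. Of the 15 pairs of members, the groups did not overlap for 7, of which 5 were lower and 2 higher in nTKO cells, and 4 of the 5 lower ones contain Krt7. Over all pairs of genes the groups did not overlap for 18.4%. The 15 pairs share genes, and those with Krt7 carry the contrast for which it was chosen.

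**Figure D3:**
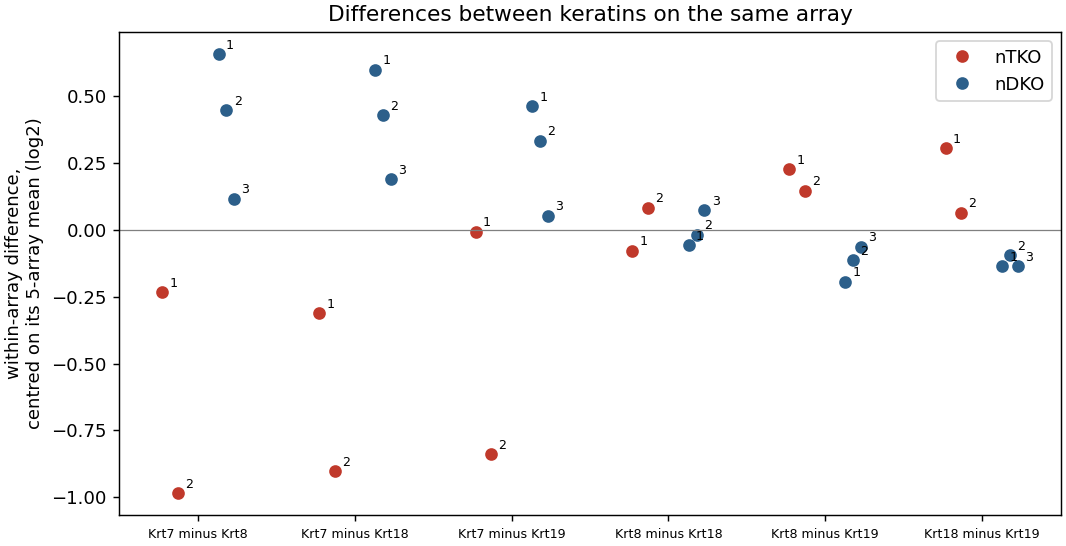
Differences between 2 keratins on the same array (log2), each centred on its mean over the 5 arrays, by genotype. Points are single mice with their replicate numbers. The pairs with Krt7 are lower in nTKO cells, Krt8 minus Krt18 spans 0.16 in all, and the pairs of Krt8 and Krt18 with Krt19 are higher in nTKO cells.

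Within each genotype, the arrays with high Krt10 had lower signals of most simple keratins. In nTKO cells, nTKO 1 minus nTKO 2 was -0.43 for Krt8, -0.27 for Krt18, -0.51 for Krt19 and -0.42 for Krt23. In nDKO cells, nDKO 1 minus the mean of nDKO 2 and nDKO 3 was -0.38 for Krt8, -0.29 for Krt18, -0.27 for Krt19 and -0.08 for Krt23. Between nDKO 2 and nDKO 3 the same keratins differed by at most 0.06.

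Krt7 and Krt20 did not share this. Krt7 was 0.32 higher in nTKO 1 than in nTKO 2, and 0 in nDKO 1 relative to nDKO 2 and nDKO 3. Krt20 was higher on both arrays with high Krt10, by 1.08 in nTKO and 1.34 in nDKO cells. It thereby had the direction of the basal keratins Krt5 (1.83 in nTKO and 2.26 in nDKO cells) and Krt14 (1.94 and 2.02) and of Krt13, a keratin of stratified mucosa (4.07 and 6.58). These arrays were recognised from their values, and each is also that of the oldest mouse of its genotype, so that age and the high squamous keratins cannot be told apart. The same differences for Epcam were -0.17 in nTKO and -0.475 in nDKO cells.

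**Figure D4:**
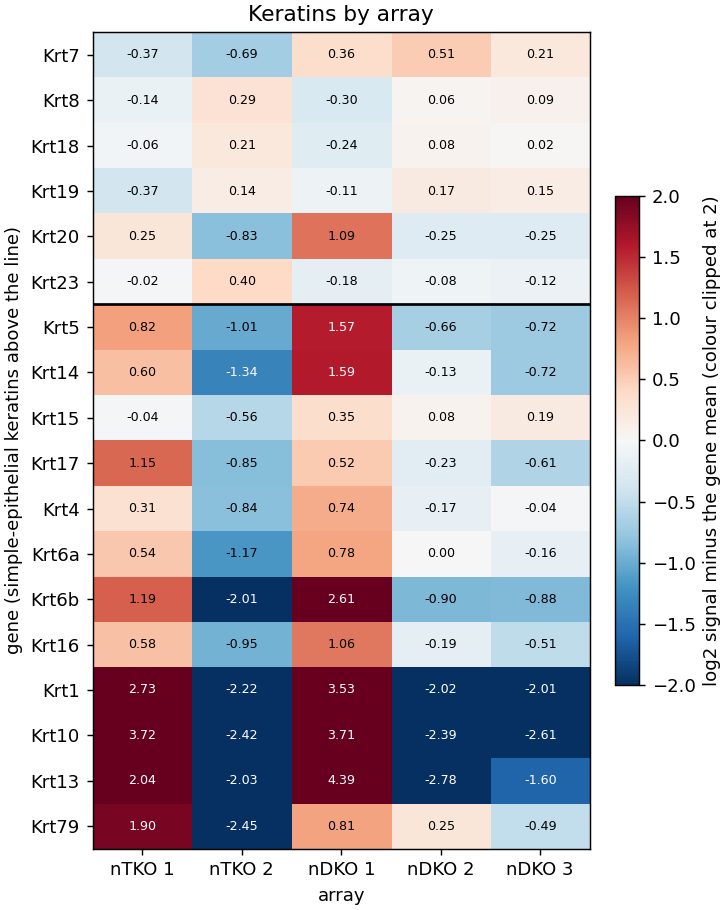
Log2 signal of keratins on each array minus the mean of the gene over the 5 arrays. The colour is clipped at 2 and the numbers are not. The simple-epithelial keratins stand above the line, and the keratins below it were selected from the longer list after their values were seen. Krt1, Krt10 and Krt13 are high in nTKO 1 and nDKO 1, where Krt8, Krt18 and Krt19 are below their means, and Krt7 is below its mean in both nTKO mice.

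The other keratins, 23 of 24 listed, were 10 higher and 13 lower in nTKO cells by mean, with a median log2 fold change of -0.05, against 0.028 over all genes. This median depended on the mice that entered, at -0.77 without nTKO 1, 0.33 without nTKO 2, 0.04 without nDKO 1, -0.23 without nDKO 2 and -0.10 without nDKO 3. With limma 0 were called over all genes. The groups did not overlap for 2, both lower in nTKO cells, against 12.8% of all genes. Krt15, a type I keratin of basal cells, was at 13.29 and 12.77 in nTKO cells and 13.68, 13.41 and 13.52 in nDKO cells (difference -0.51, SE 0.19, adjusted p = 0.853 by limma). Krt78 was at 7.29 and 7.29 against 7.35, 7.43 and 7.50 (-0.14, SE 0.066, adjusted p = 0.853 by limma). Krt5 differed by -0.16 and Krt14 by -0.62, and Krt4, a mucosal type II keratin, by -0.44 (SE 0.48). Krt24, at 3.68 and 3.74 against 3.68, 3.66 and 3.68, was dim.

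Proteins that bind keratins or tie them to junctions, 18 of 18 measured, were 3 higher and 15 lower by mean, with a median of -0.26, against 0.028 over all genes. The median was -0.085 without nDKO 1, -0.16 without nTKO 1, -0.17 without nTKO 2 and -0.07 without both nTKO 1 and nDKO 1. With limma 0 were called, and the groups did not overlap for 1, against 12.8% of all genes. This was the desmosomal plaque protein Pkp3, at 9.33 and 9.16 in nTKO cells and 9.87, 9.36 and 9.34 in nDKO cells (-0.28, SE 0.20). The value of nTKO 1 lay 0.01 below that of nDKO 3. The cytolinker Plec was low in nTKO 1 alone, at 8.87 and 9.73 in nTKO cells and 9.87, 9.78 and 9.73 in nDKO cells (-0.49, SE 0.28). The linker Macf1 differed by -0.30 (SE 0.21) and the small heat shock protein Hspb1 by -0.13 (SE 0.093). The limma adjusted p of each of these 4 was 0.853.

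The list of surface and junction proteins of simple epithelium also held the splicing regulators Esrp1 and Esrp2 and the small GTPase Rab25. Its genes, 17 of 19 measured, were 6 higher and 11 lower by mean, with 0 called with limma. Their median was -0.13, but 0.027 without nTKO 1, -0.21 without nTKO 2 and -0.08 without nDKO 3. The groups did not overlap for 4, 2 in each direction, against 8.13% of all genes higher and 4.71% lower. Dpp4, a surface peptidase, was higher, at 7.57 and 8.02 in nTKO cells and 6.47, 7.13 and 7.43 in nDKO cells (0.79, SE 0.34). The epithelial splicing regulator Esrp1 differed by 0.17 (SE 0.077), the tetraspanin Cd9 by -0.13 (SE 0.068) and the small GTPase Rab25 by -0.21 (SE 0.12). The adhesion molecules Epcam and Cdh1 differed by 0.068 and -0.13.

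Epithelial transcription factors, 20 of 23 measured, were 12 higher and 8 lower by mean, with 0 called with limma. Their median of 0.043 was -0.12 without nTKO 1 and 0.005 without nDKO 2. The groups did not overlap for 5, with 2 higher and 3 lower, where the shares of all genes were 8.13% and 4.71%. Klf5, a Krüppel-like factor of epithelial growth and differentiation, was at 11.10 and 11.09 in nTKO cells, against 11.80, 11.69 and 11.61 in nDKO cells. Both nTKO mice lay below every nDKO mouse, and the spread within each genotype was small. Klf5 differed by -0.61 (SE 0.076) on the log2 scale, and its limma adjusted p was 0.853 (0.00107 before adjustment over all genes). Other factors of the list were Jun at -0.28 (SE 0.15), Ets2 at 0.17 (SE 0.092) and Elf3 at -0.41 (SE 0.23). Mesenchymal genes, 12 of 12 measured, were 6 higher and 6 lower by mean (median -0.017, 0 called, and 0.042 without nTKO 2 or 0.053 without nDKO 3). Vim, the intermediate filament protein of mesenchymal cells, was at 7.46 and 6.24 in nTKO cells and 7.20, 6.12 and 7.49 in nDKO cells, and Cdh2 (0.13), Zeb2 (-0.068), Prrx1 (0.058) and Twist2 (-0.077) were dim.

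The genes nearest to Krt7 in pattern were found by the root mean square difference of values centred on each gene's mean, over the 5 arrays. They were Ecm1, a secreted matrix protein (0.11), Ndrg2 (0.16), the actin-capping protein Capg (0.18), Rsad1 (0.18) and the aldehyde dehydrogenase Aldh1a7 (0.18). The median of this measure over all genes was 0.48. Ecm1 was at 9.40 and 9.23 in nTKO cells, against 10.37, 10.24 and 9.97 in nDKO cells, a log2 fold change of -0.88 (SE 0.15). For all 5 genes, each nTKO value was below each nDKO value. Nearest to Krt20 were the kinase Stk26 (0.051), the adhesion molecule L1cam (0.062), the polarity protein Pard6g (0.092), the receptor Notch3 (0.097) and the surface metalloprotease Adam8 (0.10), with a median over all genes of 0.65. Their values, as those of Krt20, were highest in nDKO 1 and lowest in nTKO 2. With 5 arrays many genes share a pattern, and likeness was used here to find these genes, so no test applies.

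**Figure D5:**
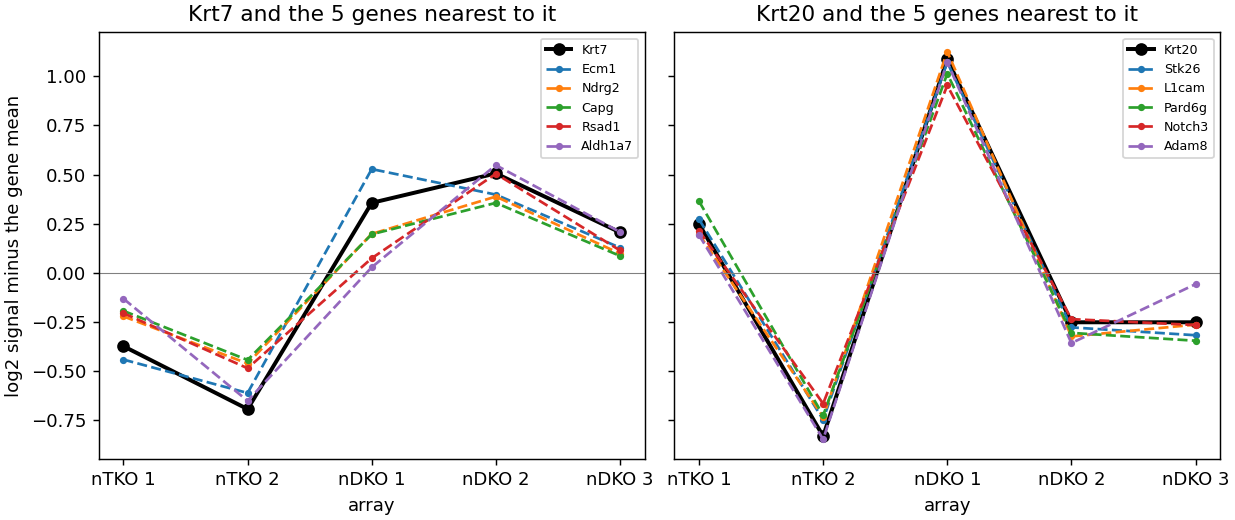
Log2 signal minus the gene's mean over the 5 arrays, for Krt7 (left) and Krt20 (right) with the 5 genes nearest to each. The lines join arrays only to help the eye. The Krt7 group is below its mean in both nTKO mice and above it in the 3 nDKO mice, and the Krt20 group peaks in nDKO 1.

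Krt7 and Krt20 are also keratins of the urothelium, which adjoins the prostate. Of the 5 other urothelial markers, the uroplakins Upk1a, Upk1b, Upk2, Upk3a and Upk3b, 2 were higher and 3 lower by mean. Their signals, summed on the linear scale, came to 930.45 and 1170.7 in nTKO cells, against 904.12 to 987.65 in nDKO cells. Upk1b, the brightest of them, made up most of each sum. Upk3a was at 5.79 and 5.72 in nTKO cells, against 6.37, 6.02 and 6.45 in nDKO cells (-0.53, SE 0.15, unadjusted p = 0.0237, limma adjusted p = 0.853), and Upk1b at 9.37 and 9.80 against 9.20, 9.45 and 9.21 (0.30, SE 0.17). Upk2 differed by -0.12, Upk1a by -0.038 and Upk3b by 0.022. The part of urothelial RNA in the Krt7 difference was not tested.

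Basal markers, 11 of 12 measured, were 2 higher and 9 lower by mean, with a median of -0.40. This median was -0.13 without nDKO 1, -0.25 without nTKO 2 and -0.09 without both nTKO 1 and nDKO 1. The summed signal was 22451 and 12704 in nTKO cells, against 34711, 18496 and 18173 in nDKO cells. Besides Krt15, Pdpn differed by -0.58 (SE 0.31), Itgb4 by -0.40 (SE 0.24) and Itga6 by -0.25 (SE 0.15). The 2 higher genes were Krt17 (0.26, SE 0.73) and Trp63 (0.15, SE 1.02). Squamous differentiation genes, 12 of 13 measured, were 5 higher and 7 lower by mean. Their median of -0.23 turned to 0.67 without nTKO 2 and to 0.55 without nDKO 1, and was -1.45 without nTKO 1, -0.56 without nDKO 2 and -0.58 without nDKO 3. Sprr3 differed by -0.77 (SE 0.76), Krt6a by -0.52 (SE 0.62) and Lor by -0.15 (SE 0.16). The 5 higher genes were Krt10 (1.08, SE 2.965), Krtdap (0.84, SE 2.59), Krt1 (0.42, SE 2.54), Sprr1a (0.32, SE 0.52) and Krt13 (0.0017, SE 2.73). The summed signal of the squamous list was 33690 in nTKO 1 and 45211 in nDKO 1, against 9550.6 in nTKO 2 and 13094 and 13435 in the other nDKO mice. In both lists 0 genes were called with limma. The part of basal and squamous cells in the differences of the simple keratins was not tested.

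Markers of other cells in the suspension gave 0 calls with limma. Neutrophil markers, 7 of 9 measured, were 7 higher by mean, among them Mmp8 (0.84), Ngp (0.28) and Camp (0.078). Their median of 0.28 was -0.45 without nTKO 1, 0.93 without nTKO 2 and 0.095 without nDKO 2. The summed signal was 15372 in nTKO 1 and 738.09 in nTKO 2, against 1627.3 to 2749.2 in nDKO cells. Most of each sum came from S100a8 and S100a9, and Ngp and Camp were dim. S100a8 was at 12.79 and 8.30 in nTKO cells and 10.53, 9.66 and 10.37 in nDKO cells (0.36, SE 1.44). S100a9 was at 12.94 and 7.93, against 10.01, 9.26 and 9.99 (0.68, SE 1.60). Macrophage markers were 3 higher and 6 lower of 9, with a median of -0.075 that lay between -0.47 and 0.185 with 1 mouse left out. C1qa was the most negative, at -0.94 (SE 0.47), while the related C1qb and C1qc differed by -0.18 (SE 0.57) and -0.075 (SE 0.55). The 3 higher genes were Cd14 (0.17), Csf1r (0.07) and Mrc1 (0.037). Transcripts of the seminal vesicle, a neighbouring gland, had a summed signal of 34549 and 27945 in nTKO cells and 9229.3, 38300 and 67584 in nDKO cells, so that nDKO 1 was lowest. T cell, fibroblast and endothelial markers had array medians of 5.37 and 5.37, 4.40 and 4.38, and 3.45 and 3.27 in nTKO cells, against 5.21 to 5.35, 4.36 to 4.42 and 3.20 to 3.34 in nDKO cells. Both nTKO values lay above all nDKO values for 1 of 8 fibroblast, 1 of 6 T cell and 1 of 6 endothelial genes, against 8.13% of all genes. They were Col3a1 (0.48, SE 0.14), Cd2 (0.22, SE 0.085) and Tek (0.30, SE 0.12), with all values below 4. By mean, fibroblast genes were 5 higher and 3 lower, T cell genes 4 and 2, and endothelial genes 5 and 1. The fibroblast gene Dcn was lower (-0.80, SE 1.10), at 6.41 and 9.52 in nTKO cells and 7.87, 9.39 and 9.03 in nDKO cells. The part of these cells in the keratin differences was not tested.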

How the data were processed

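Per the submitters' processing notes, the authors deposited log2 signals made by RMA in the Transcriptome Analysis Console (versions not stated). This method corrects background, quantile-normalizes and gives 1 value per probe set, so a shift shared by most genes is not seen and dim sets are compressed. No scanner files were used. The number of arrays, 5, limits the precision, and no batch is given in the labels. The mice have separate animal numbers.

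Of 45037 probe sets, 34945 had 1 gene symbol, 932 several (0 of them with a member) and 9160 none. A gene was represented by its single-symbol probe set with the highest mean. The test was limma 3.58.1 under R 4.3.3 (lmFit, eBayes with an intensity trend, no filter or covariate, two-sided, threshold 0.05 on the Benjamini-Hochberg adjusted p over 18193 genes, 3 residual degrees of freedom), checked on simulated arrays. SEs of members come from the same fit over all probe sets. "Higher" and "lower" by mean are signs, not calls.

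Named were the members, Pygo2, Smad4, Krt5, Krt14, Krt10, Krt13 and Vim, and the 5 genes nearest in pattern to each member spanning at least 1 log2 unit. From each list the rule was to name the 4 genes with the smallest p. For the macrophage, T cell, fibroblast and endothelial lists only some of these are named, and for the seminal vesicle list none. Epcam, Foxa1, Cdh1 and Upk3b were named outside this rule. Further genes of the basal, squamous, neutrophil, macrophage and fibroblast lists were named after their values were seen, to show the range of these lists. Members and lists were chosen with earlier results of these data known. Some items are not reported here.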

Additional observations from a re-analysis of the deposited data

How the results depend on the processing

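In 13 alternatives of the comparison of all genes (all probe sets, quantile normalization, median centring, the median gene level of 6.32 as a filter, no intensity trend, log2 age, the replicate block, each mouse left out, and both nTKO 1 and nDKO 1 left out), 0 genes had a limma adjusted p under 0.05. Genes with an unadjusted p under 0.05 numbered 689, against 1901 once log2 age entered the fit, 1491 without nTKO 1, 2895 without nTKO 2, 2996 without nTKO 1 and nDKO 1, and 442 without nDKO 2. Krt7 and Krt23 kept their direction in all 14 settings each, at -1.09 to -0.73 and 0.11 to 0.62. These include nTKO 2 minus nDKO 1, mice of nearly the same age, added after seeing the data. The groups do not overlap for either gene, so leaving out mice or taking 1 mouse per group could not have changed the sign. Settings that change only the genes fitted or the trend return the same difference. The kept direction therefore adds little to the values themselves. With each mouse left out in turn, Krt8 lay between -0.09 and 0.34, Krt18 between -0.013 and 0.26, Krt19 between -0.44 and 0.07 and Krt20 between -1.03 and 0.053. The reversed sign came without nTKO 2 for Krt8, Krt18 and Krt20 and without nTKO 1 for Krt19, which was also 0.26 with log2 age and 0.25 for nTKO 2 minus nDKO 1. The cause was not tested.

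The mice share replicate numbers 1 and 2, but nothing in the labels says that a number pairs them. Deviations from the genotype mean correlated over genes at 0.424 for nTKO 1 with nDKO 1 and 0.338 for nTKO 2 with nDKO 2. For nTKO 2 with nDKO 3, which have unlike numbers, the correlation was nearly as high, at 0.310. With 2 nTKO mice the deviations of 1 are those of the other with the sign reversed, so these values are not independent. They cannot show whether the numbers pair the mice. With the number as a block Krt7 was -0.96 and 0 genes passed. The filter left out Krt20 and left the T cell and endothelial lists without genes. Krt20 and other dim sets near the array median may not respond in full.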
